A study of Mus musculus with 6 samples.

Results

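The genes of MHC class II antigen presentation were followed in subcutaneous CT26 tumours of mice given irinotecan or solvent. They were taken by gene symbol from the deposited table, and 10 of its 25251 genes had one of these symbols. The 10 are H2-Aa, H2-Ab1 and H2-Eb1, which encode peptide-presenting chains, Cd74, H2-DMa, H2-DMb1, H2-DMb2, Ciita, Ctss and Ifi30. All 10 passed the filter on low values, a mean normalized read count of at least 10 over the 6 libraries.

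MHC class II molecules are pairs of an alpha and a beta chain that show peptides from endocytosed protein to CD4 T cells. Cd74, the invariant chain, blocks the groove during transport, cathepsin S trims it, and H2-DM exchanges the remaining fragment for peptide, while Ifi30 reduces disulfide bonds of the antigens. In most tissues the genes are expressed chiefly by dendritic cells, macrophages and B cells, where the coactivator Ciita acts with the RFX, NF-Y and CREB factors, and interferon-gamma can induce them elsewhere, in part through Irf1.

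The irinotecan group had 3 tumours and the solvent control group had 3. Both groups were CT26, a mouse colon carcinoma line grown under the skin of BALB/c mice, and both carry the genotype label WT. Irinotecan (CPT-11), a prodrug whose metabolite inhibits topoisomerase I, was injected intraperitoneally at 25 mg/kg at intervals of 4 days, in mice randomized at a tumour volume of 100 mm3. The labels used here give neither the age of the mice nor the time between the last dose and collection. In the series text the tumours are said to be in duplicate, but 3 samples per group are labelled, and all were used. No label says that samples came from separate mice, so the p-values cover only the variation among these samples, which may be technical.

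The libraries held 13940650 to 15656894 reads counted on genes. Irinotecan replicate 1 stood apart. Its log2 values correlated with those of the other 5 libraries at 0.932 to 0.941, against 0.975 to 0.985 among the others. It had reads for 19040 genes, against 20571 to 21426 in the other libraries. The labels call the cells colon cancer cells. Of epithelial genes, Epcam was at 0 in all libraries except irinotecan replicate 2, at 2.89 normalized counts. Krt8 lay between 37.0 and 149 normalized counts in the irinotecan tumours, against 50.5 to 80.4 in the controls. Ptprc, the leukocyte antigen CD45, lay between 1023 and 1453 normalized counts in the irinotecan tumours, against 1170 to 1450 in the controls, so these bulk samples also held leukocyte RNA.

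Promoter windows from RefSeq (GRCm38.p6, 250 bases before the transcript start to 50 after it) were matched by symbol for 7 members, with 8 windows because H2-DMa has 2. H2-Ab1, Cd74 and Ciita were not matched. Class II promoters are known for an X box, bound by the RFX complex, and a Y box, bound by NF-Y. The letters AGNNACNGA for the X box were found on either strand in 2 of the 8 windows, against 17.7% of all 32851 promoter windows. CTGATTGG for the Y box was in 2 of 8, against 4.10%. The gamma-activated site TTCNNNGAA, a motif of interferon-gamma target genes, was in 1 of 8, against 8.30%. The interferon response element AAANNGAAA was in 2 of 8, against 10.6%. No match overlapped a match to another of these motifs. The stretches from position -170 to -31 are shown for 4 members on chromosome 17, with X box and Y box matches in capitals. H2-DMb1 and H2-DMb2 are shown because they are near copies whose libraries came in different orders, H2-Aa and H2-Eb1 because their libraries came in 1 order.
H2-DMb2 (chr17:34145079-34145218, plus strand): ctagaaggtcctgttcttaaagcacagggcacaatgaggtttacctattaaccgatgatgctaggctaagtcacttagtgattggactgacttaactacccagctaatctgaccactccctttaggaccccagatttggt
H2-DMb1 (chr17:34153021-34153160, plus strand): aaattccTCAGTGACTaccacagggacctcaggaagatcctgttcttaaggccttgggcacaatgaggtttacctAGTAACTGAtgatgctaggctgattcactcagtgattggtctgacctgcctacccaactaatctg
H2-Aa (chr17:34287854-34287993, minus strand): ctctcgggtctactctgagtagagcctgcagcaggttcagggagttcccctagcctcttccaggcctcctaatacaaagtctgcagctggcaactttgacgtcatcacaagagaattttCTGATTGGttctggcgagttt
H2-Eb1 (chr17:34305697-34305836, plus strand): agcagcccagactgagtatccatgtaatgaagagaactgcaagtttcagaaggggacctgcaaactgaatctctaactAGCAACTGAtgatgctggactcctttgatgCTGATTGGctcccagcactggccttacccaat

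In these stretches H2-Eb1 held both motifs, with the X box at -92 and the Y box at -62. By the letters searched, H2-Aa held the Y box alone, at -51, and H2-DMb1 held the X box alone, at -95 and, on the opposite strand, at -163. H2-DMb2, whose RefSeq start lies inside the span the deposited table gives for the gene, had neither as spelled here, and its gamma-activated site match lay farther upstream, at -218. Ctss had the interferon response element at -20 and 37, and H2-DMa had it at -25. A match describes the letters only, and their absence says nothing about binding.

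None of the 10 genes was called by the test used, limma on log2(normalized count + 1) with Benjamini-Hochberg adjustment over 14639 genes. The count was 0 of 10 members, and over all genes 0% was called. On the recovered reads, edgeR with TMM called 0 of the 10 and 0 over all genes. DESeq2 on those reads called 0 of the 10 and 47 over all genes. The values of most members were lowest in irinotecan replicate 1 and highest in irinotecan replicate 3, with the controls between them. H2-DMb2, a beta chain of the peptide exchanger, was the 1 member whose irinotecan and control values did not overlap. Over all genes tested, the irinotecan values all lay above the controls for 6.68% and all below them for 7.89%. Of the members, H2-DMb2 alone had an unadjusted p under 0.05 (limma), against 5.77% of all genes tested (844 genes, 393 higher and 451 lower). In the authors' deposited table, 0 of the 10 had an adjusted p under 0.05, against 0.186% of genes with a p-value (47 of 25244). In bulk tumour RNA, fewer cells of a type and less RNA per cell cannot be told apart. Irinotecan replicate 1 also differed from the other libraries over all genes, being the lowest for 36.8% of those tested. What sets that library apart was not tested.

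**Figure D1:**
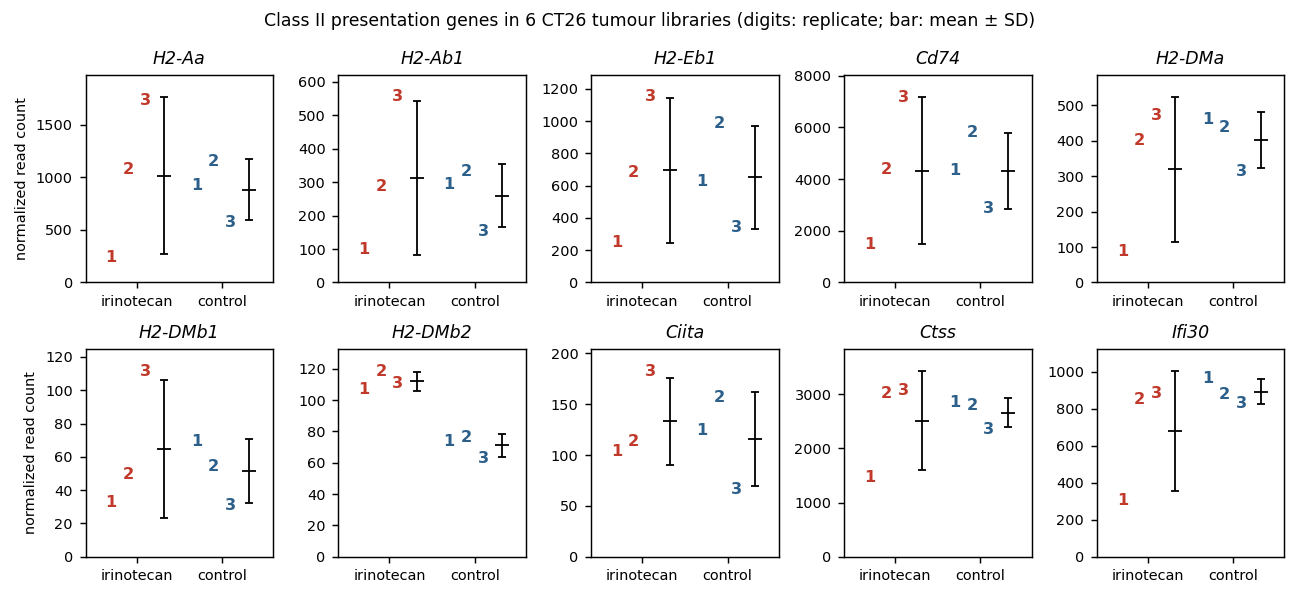
Normalized read count (vertical axis, linear from 0) of the 10 genes in irinotecan tumours (red, left) and solvent controls (blue, right). Digits give the replicate, and black bars give the mean ± SD of 3. H2-DMb2 is the panel in which the groups lie apart, at 107 to 118 against 62.9 to 76.3, and in most others irinotecan replicates 1 and 3 are far apart.

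By the deposited annotation (GRCm38), the chain genes lie on chromosome 17, H2-Ab1 at chr17:34263209-34269418 and H2-Eb1 at chr17:34305877-34316199 on the plus strand, with H2-Aa between them at chr17:34282744-34287827 on the minus strand. H2-Aa, the alpha chain of the I-A molecule, had 239, 1076 and 1737 normalized counts in irinotecan tumours 1, 2 and 3, against 926, 1150 and 575 in controls 1, 2 and 3. The irinotecan tumours held both the lowest and the highest value, so the groups overlapped, and they spread 7.26-fold, against 2.0-fold in controls. The means were 1017 ± 751 and 884 ± 290 (SD, n = 3 each). Its log2 fold change was -0.15 with a standard error of 0.64 (limma, Benjamini-Hochberg adjusted p = 0.946). The linear mean was higher with irinotecan and the log2 mean lower, and count models, which compare linear means, gave 0.21 with edgeR and TMM scaling.

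H2-Ab1, the I-A beta chain, had 97.5, 288 and 555 normalized counts in the irinotecan tumours, against 294, 331 and 154 in the controls. Irinotecan replicate 1 was again the lowest library, control replicate 3 the next and irinotecan replicate 3 the highest, with a 5.69-fold spread among irinotecan tumours and 2.15-fold among controls. The log2 fold change was 0.02 with a standard error of 0.58 (limma, Benjamini-Hochberg adjusted p = 0.992). H2-Eb1, the I-E beta chain, had 251, 683 and 1150 normalized counts with irinotecan, against 624, 985 and 343 in controls. The groups overlapped again, and the log2 fold change was -0.03 with a standard error of 0.55 (limma, Benjamini-Hochberg adjusted p = 0.986).

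Cd74, the invariant chain, had 1459, 4367 and 7165 normalized counts in the irinotecan tumours, against 4316, 5792 and 2854 in the controls. It followed the chains, lowest in irinotecan replicate 1 and highest in irinotecan replicate 3. The means, 4330 ± 2853 and 4321 ± 1469 (SD, n = 3 each), were near each other, and the log2 fold change was -0.21 with a standard error of 0.52 (limma, Benjamini-Hochberg adjusted p = 0.908).

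Across the libraries Cd74 kept close to the sum of the chains. Ratios between single chains are given as well. A sum evens out the variation of its parts, so the ranges of these ratios are not like for like. Cd74 over the sum of H2-Aa, H2-Ab1 and H2-Eb1 was 2.48, 2.13 and 2.08 in the irinotecan tumours, against 2.34, 2.35 and 2.66 in the controls. That ratio varied 1.28-fold over the 6 libraries, while the sum itself varied 5.86-fold. The ratio of H2-Aa to H2-Ab1, the alpha and beta chains of one molecule, was 2.45, 3.74 and 3.13 with irinotecan, against 3.16, 3.47 and 3.74 in controls, a 1.52-fold range. H2-Aa over H2-Eb1 ran from 0.955 in irinotecan replicate 1 to 1.68 in control replicate 3, a 1.76-fold range. These are ratios of counts not corrected for gene length, and they are given without a test because they were chosen with the values known.

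Ciita, the class II coactivator, was steadier among the irinotecan tumours than its target chains. The gene lies at chr16:10480059-10528418 on the plus strand. It had 104, 114 and 182 normalized counts with irinotecan, against 124, 157 and 65.8 in controls. Irinotecan replicate 1, lowest for the chains, lay within the control range for Ciita, whose lowest library was control replicate 3. The log2 fold change was 0.25 with a standard error of 0.36 (limma, Benjamini-Hochberg adjusted p = 0.835). The summed chains were 5.66, 18.0 and 18.9 times the Ciita count in irinotecan tumours 1, 2 and 3, against 14.8, 15.7 and 16.3 in controls 1, 2 and 3. Irinotecan replicate 1 lay far under the other 5 libraries, which were within a narrow range. Ciita overlaps Dexi on the opposite strand, and whether the counting used strand is unknown from the sources at hand.

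**Figure D2:**
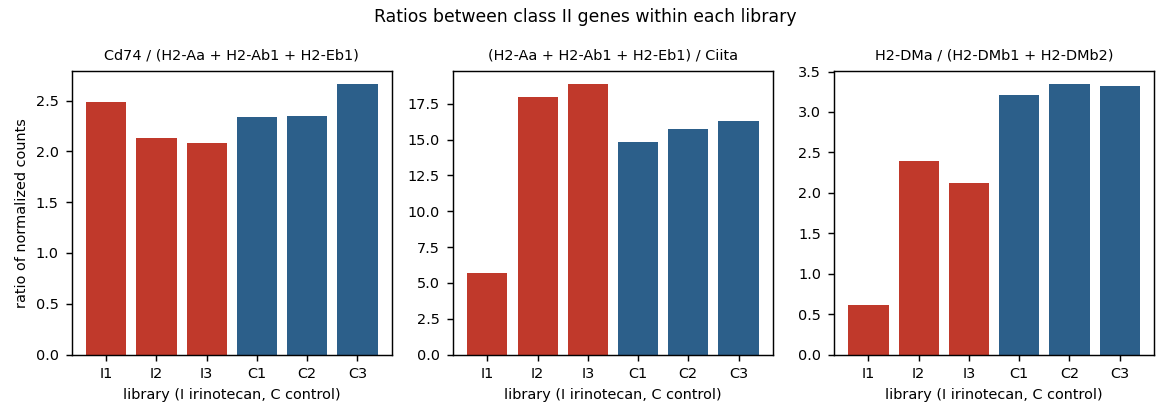
Ratios of normalized counts (vertical axes, from 0) in irinotecan tumours I1 to I3 (red) and controls C1 to C3 (blue). Cd74 over the chains stays between 2.08 and 2.66, the chains over Ciita fall to 5.66 in irinotecan replicate 1 alone, and H2-DMa over its beta chains is at most 2.39 in irinotecan tumours against at least 3.21 in controls.

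H2-DM is a pair of an alpha chain, from H2-DMa, and a beta chain, from H2-DMb1 or H2-DMb2. The 3 genes lie side by side on the plus strand, H2-DMa at chr17:34135182-34139101, H2-DMb2 at chr17:34143307-34151553 and H2-DMb1 at chr17:34153072-34160230. H2-DMa had 86.3, 401 and 470 normalized counts in the irinotecan tumours, against 459, 437 and 312 in the controls. Irinotecan replicate 1 was far under every other library, and the other 2 irinotecan tumours lay within or just above the control range. The log2 fold change was -0.64 with a standard error of 0.57 (limma, Benjamini-Hochberg adjusted p = 0.762). Without irinotecan replicate 1 it was 0.13. H2-DMa overlaps Brd2, an abundant gene on the opposite strand, so reads from the pair may not be told apart.

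H2-DMb1 had 32.9, 49.1 and 111 normalized counts with irinotecan, against 69.2, 54.4 and 31.0 in controls. It was the member with the fewest reads, 32 to 110 per library, and the groups overlapped. Its log2 fold change was 0.21 with a standard error of 0.49 (limma, Benjamini-Hochberg adjusted p = 0.904).

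H2-DMb2 had 107, 118 and 110 normalized counts in the irinotecan tumours, against 73.9, 76.3 and 62.9 in the controls. Each irinotecan tumour lay above each control, irinotecan replicate 1 included. All 3 irinotecan libraries were above all 3 controls for 1 of the 10 members, against 6.68% of all genes tested. They were all below for 0 of the 10, against 7.89%. The means were 112 ± 5.97 and 71.0 ± 7.12 (SD, n = 3 each). The log2 fold change was 0.65 with a standard error of 0.22, an unadjusted p of 0.0162 and a Benjamini-Hochberg adjusted p of 0.743 (limma), so it did not pass. Over 19 other settings of the test the log2 fold change lay between 0.57 and 0.75, and the Benjamini-Hochberg adjusted p from 0.202 to 0.989. In the authors' deposited table it was 0.66, with an adjusted p of 0.696.

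The 2 beta chain genes are close copies. Of all 50-base windows in their GENCODE M21 transcripts, 369 were the same in both, 22.7% of those of H2-DMb1 and 21.2% of those of H2-DMb2. Reads may thus have been split between them or left uncounted. H2-DMb2 over H2-DMb1 was 3.25, 2.41 and 0.99 in the irinotecan tumours, against 1.07, 1.40 and 2.03 in the controls. The ratio overlapped between groups and was highest in irinotecan replicate 1. H2-DMa over the sum of both beta chains was 0.618, 2.39 and 2.12 in the irinotecan tumours, against 3.21, 3.34 and 3.32 in the controls. All irinotecan tumours lay under all controls, and the 3 controls were nearly alike. This ratio was chosen with its values known and has no test. It does not depend on how counted reads were split between the copies, but reads that match both may not have been counted. The overlap of H2-DMa with Brd2 bears on it as well.

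Ctss lies at chr3:95526786-95556403 on the plus strand, and Ifi30 at chr8:70762774-70766663 on the minus strand. Ctss, the cysteine protease cathepsin S, had 1458, 3008 and 3075 normalized counts with irinotecan, against 2846, 2788 and 2348 in controls. Irinotecan replicate 1 was under every other library, and replicates 2 and 3 were just above the controls. The log2 fold change was -0.16 with a standard error of 0.28 (limma, Benjamini-Hochberg adjusted p = 0.866). Ifi30, the lysosomal thiol reductase GILT, had 305, 852 and 882 normalized counts with irinotecan, against 967, 880 and 832 in controls. It was low in irinotecan replicate 1 alone, and its log2 fold change was -0.54 with a standard error of 0.37 (limma, Benjamini-Hochberg adjusted p = 0.743). The file's annotation types Ifi30 as a processed transcript and the other 9 genes as protein-coding.

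**Figure D3:**
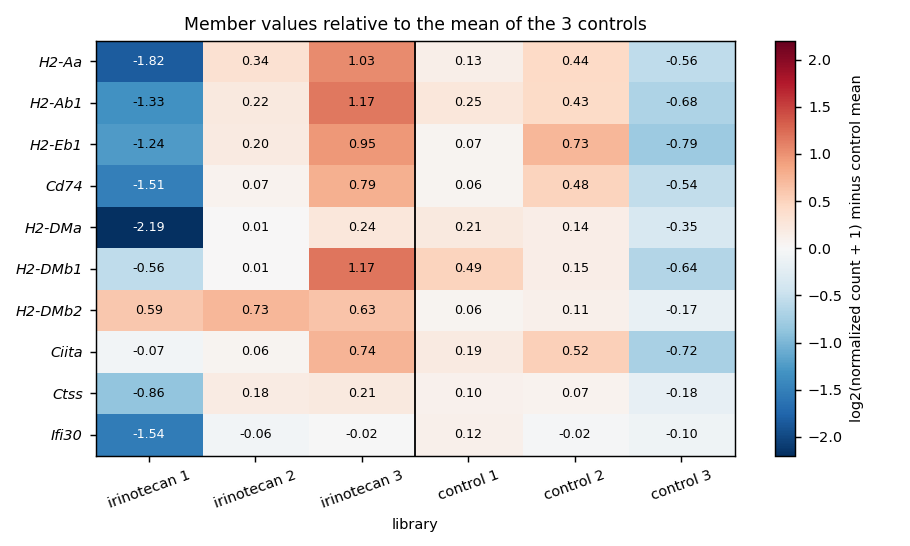
Log2(normalized count + 1) of each gene (down the page) in each library, minus the mean of the 3 controls. Irinotecan tumours are the 3 left columns and controls the 3 right ones. Irinotecan replicate 1 is low for most genes, at -2.19 for H2-DMa, replicate 3 is high for most, and H2-DMb2 lies between 0.59 and 0.73 in all irinotecan tumours.

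Levels were set side by side between genes after division by gene length, in normalized counts per kilobase. Such division does not correct for class II sequence differences between BALB/c and the reference strain. Nor does it correct for sequence shared by H2-DMb1 and H2-DMb2, or for the overlaps of H2-DMa with Brd2 and of Ciita with Dexi. The order given is thus that of the counts, and whether transcript levels follow it was not tested. Cd74 was the highest, with means of 3071 ± 2023 in irinotecan tumours and 3064 ± 1042 in controls (SD, n = 3 each). Ctss followed at 1851 ± 674 and 1959 ± 200. Cd74 was above Ctss in each control, at 3061, 4108 and 2024 against 2096, 2053 and 1729, whereas in irinotecan replicate 1 it was at 1035 against 1074. Ifi30 averaged 693 ± 331 with irinotecan and 910 ± 69.6 in controls. H2-Eb1 was at 587 ± 380 and 549 ± 272, and H2-Aa at 543 ± 401 and 472 ± 155, with means closer to each other than either SD. Here and below, the SD is a spread between libraries, and the genes were not compared library by library. H2-DMa, at 194 ± 125 and 245 ± 48.4, and H2-Ab1, at 192 ± 141 and 159 ± 57.1, came next. Their irinotecan means were within the spread of each other, and in the controls the means lay farther apart than either SD. H2-DMb2 stood at 65.4 ± 3.49 and 41.5 ± 4.16, above H2-DMb1 at 43.4 ± 28.0 and 34.7 ± 13.0, within the spread of H2-DMb1. Ciita, the regulator, was the lowest at 14.0 ± 4.50 with irinotecan and 12.1 ± 4.84 in controls.

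The order of the libraries was much the same for most of the 10 genes. Irinotecan replicate 1 was the lowest library for 7 members, against 36.8% of all genes tested. Irinotecan replicate 3 was the highest for 8, against 14.4% of all genes. Among the controls, replicate 3 was the lowest for all 10, and the share of all genes tested with that order was not computed. The median of the members, as log2 values relative to the control mean, was -1.29, 0.13 and 0.76 in irinotecan tumours 1, 2 and 3, against 0.12, 0.29 and -0.55 in controls 1, 2 and 3. The irinotecan tumours spanned a wider range than the controls for 8 members, against 74.3% of all genes tested, H2-DMb2 and Ciita being the exceptions.

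The fold changes of the members were positive for 4 of 10 (40% against 48.2% of all genes), with a median of -0.09 against -0.01 over all genes. These figures turned on single libraries. Without irinotecan replicate 1, 9 of 10 were positive and the median was 0.50. Without irinotecan replicate 3, 1 was positive and the median was -0.54. Without control replicate 3, 1 was positive and the median was -0.37. Leaving out control replicate 2 gave 7 positive and a median of 0.15. H2-DMb2 was the 1 gene that stayed positive in each of these.

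Without irinotecan replicate 1, H2-Aa had a log2 fold change of 0.69 with a standard error of 0.26 and an unadjusted p of 0.0218 (limma, Benjamini-Hochberg adjusted p = 0.431, over all 19 alternatives 0.422 to 0.996). H2-Ab1 had 0.70 with a standard error of 0.32, H2-Eb1 0.57 with 0.34, and Cd74 0.43 with 0.26. With H2-DMb2 at 0.68, 2 members had an unadjusted p under 0.05 in these 5 libraries, against 9.50% of all genes (1390), and no member passed the adjusted threshold.

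**Figure D4:**
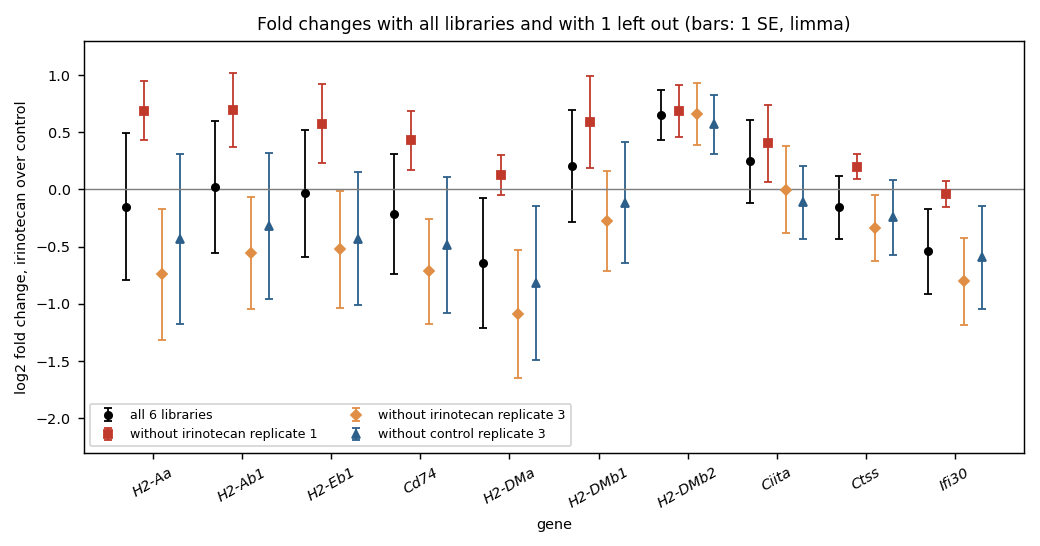
Log2 fold change, irinotecan over control, of the 10 genes with all 6 libraries (black circles) and without irinotecan replicate 1 (red squares), irinotecan replicate 3 (orange diamonds) or control replicate 3 (blue triangles). Bars are 1 standard error from limma. The sign turns with the library left out for most genes, and H2-DMb2 stays between 0.57 and 0.68.

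Other class II pathway genes were read from a list of 24, of which 21 were in the table and 18 were tested. None passed the adjusted test. A positive log2 fold change was seen for 6 (33.3% against 48.2% of all genes), and the median of the 18 was -0.15 against -0.01 over all genes. H2-Ea-ps, the I-E alpha chain locus, had 248, 929 and 1524 normalized counts with irinotecan, against 841, 1291 and 571 in controls. It moved as H2-Eb1, its partner, did: the ratio of H2-Eb1 to H2-Ea-ps was 1.01, 0.735 and 0.755 in the irinotecan tumours, against 0.741, 0.763 and 0.600 in the controls. The locus is annotated as a pseudogene because it does not work in C57BL/6, the strain of the reference genome, whereas BALB/c mice carry a working copy. Class II genes differ in sequence between these strains, and the effect of counting BALB/c reads on that reference was not tested.

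H2-Oa and H2-Ob encode H2-DO, which restrains H2-DM and is known mainly from B cells. H2-Oa had 0, 0 and 7.09 normalized counts with irinotecan, against 5.61, 2.09 and 1.94 in controls, and H2-Ob had 0, 6.74 and 18.2 against 15.9, 8.36 and 7.75. Both were under the filter and had no test, and irinotecan replicate 1 had no read of either. Rfx5, a subunit of the X box complex, had 141, 236 and 301 normalized counts with irinotecan, against 206, 276 and 201 in controls. Its libraries came in the order of H2-Aa, over a narrower range. Of the other promoter factors, Creb1 had a log2 fold change of 0.38, Nfya of 0.27, Rfxank of 0.26, Rfxap of 0.07, Nfyb of 0.02 and Nfyc of -0.18.

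Of the endosomal proteases, Lgmn, the asparagine-specific legumain, had the smallest unadjusted p of the list. It had 1521, 3643 and 3463 normalized counts with irinotecan, against 4930, 4387 and 4101 in controls. All irinotecan tumours lay under all controls, as for 7.89% of all genes tested, with a log2 fold change of -0.74, a standard error of 0.31 and an unadjusted p of 0.0432 (limma, Benjamini-Hochberg adjusted p = 0.743). Ctsd and Ctsl, cathepsins D and L, had log2 fold changes of -0.42 and -0.20, with overlapping groups.

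The interferon-gamma route to Ciita was read from 10 genes, 9 of them tested. None passed the adjusted test, 3 were positive (33.3% against 48.2% of all genes) and the median log2 fold change was -0.10 against -0.01 over all genes. Ifng itself was low and untested, with 0, 8.67 and 19.3 normalized counts in the irinotecan tumours, against 4.67, 4.18 and 5.81 in the controls, and was named after its values were seen. Irf1 had 919, 1465 and 1769 normalized counts with irinotecan, against 1253, 1239 and 794 in controls, a log2 fold change of 0.32. Like Ciita, it was lowest in control replicate 3. Jak1 had a log2 fold change of 0.17, and Ifngr1, Ifngr2 and Socs1, a feedback inhibitor, had -0.11, -0.21 and -0.56.

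The class I route, which shows peptides from inside the cell to CD8 T cells, was read from 9 genes. None passed the adjusted test. Of the 9, 7 were positive (77.8% against 48.2% of all genes), with a median log2 fold change of 0.33 against -0.01 over all genes. Tap2, a peptide transporter chain whose gene lies in the class II region, had 1208, 872 and 1069 normalized counts with irinotecan, against 681, 707 and 556 in controls. The groups lay apart, with a log2 fold change of 0.69, a standard error of 0.17 and an unadjusted p of 0.0034 (limma, Benjamini-Hochberg adjusted p = 0.743). Psmb8, an immunoproteasome subunit, and Nlrc5, the class I counterpart of Ciita, had log2 fold changes of 0.53 and 0.44, also with the groups apart. Tap2, Psmb8 and Nlrc5 were named for the smallest unadjusted p of the positive genes, and 6.68% of all genes tested lay apart in this direction. Irinotecan replicate 1 was not low for these 3 genes, as it was not for H2-DMb2. B2m, the class I light chain, was low there, at 8863 normalized counts against 25459 or more in the other irinotecan tumours and 25053 or more in controls. The difference between the class I and class II lists was not tested.

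The summed marker lists of the cells that carry class II were low in irinotecan replicate 1, as the chains were, though not each marker was. Elsewhere the sums depended on a few abundant genes. The 14 macrophage markers summed to 13747, 30973 and 26965 normalized counts in irinotecan tumours 1, 2 and 3, against 31697, 30777 and 29564 in controls 1, 2 and 3. None of the 14 had a positive log2 fold change, against 48.2% of all genes, and none passed the adjusted test. Irinotecan replicate 1 was the low library. Lyz2 and Mrc1 made up 57.6% to 63.4% of each sum, and the other 12 markers summed to 5091, 11386 and 11425 with irinotecan, against 13146, 12927 and 10823 in controls. Some markers were higher in irinotecan replicate 3 than in control replicate 3, as the chains were. Aif1, an actin-binding protein of macrophages, had 84.2, 175 and 239 normalized counts with irinotecan, against 147, 186 and 138 in controls, in the library order of H2-Aa. The scavenger receptors Cd163 and Mrc1 were named after their values were seen. Both were under all controls in all irinotecan tumours, as were 7.89% of all genes tested. Their log2 fold changes were -1.11 and -0.74, with unadjusted p of 0.000543 and 0.00312 (limma, Benjamini-Hochberg adjusted p = 0.662 and 0.743). Adgre1, the F4/80 antigen, had 450, 459 and 555 normalized counts with irinotecan, against 656, 730 and 564 in controls. Csf1r and C1qa had log2 fold changes of -0.35 and -0.27.

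The 11 dendritic cell markers summed to 1577, 2311 and 2646 normalized counts with irinotecan, against 2960, 2952 and 2985 in controls. Fscn1, the actin bundler fascin, made up 77.0% to 85.9% of each sum. It was under all controls in all irinotecan tumours, as were 7.89% of all genes tested. Without Fscn1 the other 10 summed to 363, 483 and 599 with irinotecan, against 481, 505 and 420 in controls. On that sum the groups overlapped and the libraries came in the order of H2-Aa, over a 1.65-fold range, against 5.86-fold for the summed chains. Within it Zbtb46 ran the other way, at 236, 160 and 190 normalized counts with irinotecan, against 126, 127 and 131 in controls. Its irinotecan values all lay above the controls, as for 6.68% of all genes tested, and were highest in irinotecan replicate 1. The order and range of the sum thus depend in part on Zbtb46. Of the 10 list markers tested, 3 had a positive log2 fold change (30% against 48.2% of all genes). Batf3, Cd209a and Siglech were at 0 in irinotecan replicate 1. Itgax, the integrin CD11c, had 63.7, 115 and 156 normalized counts with irinotecan, against 107, 144 and 72.6 in controls, in the library order of H2-Aa. Flt3, a growth factor receptor of dendritic cells, had 2.05, 7.71 and 17.2 with irinotecan, against 18.7, 23.0 and 11.6 in controls.

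B cell markers were close to the detection limit. The 8 of them summed to 30.8, 49.1 and 43.6 normalized counts with irinotecan, against 67.3, 72.1 and 37.8 in controls, and 2 of the 8 were tested. Cd79a, a chain of the B cell receptor, had 3.08, 11.6 and 7.09 with irinotecan, against 11.2, 22.0 and 10.7 in controls. The 5 pan-leukocyte markers summed to 3271, 5915 and 4930 with irinotecan, against 4903, 5263 and 5405 in controls. The 12 T cell markers summed to 465, 1015 and 815, against 754, 719 and 599. The part of these cell types in the class II values was not tested.

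**Figure D5:**
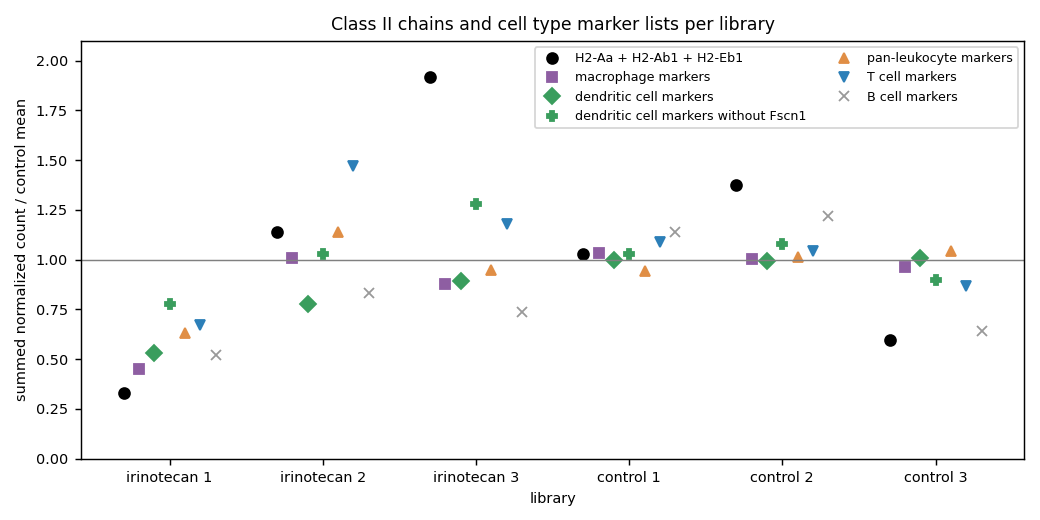
Summed normalized counts of the 3 class II chains and of 5 marker lists, the dendritic one also without Fscn1, in each library, each divided by its control mean (vertical axis, ratio from 0; irinotecan tumours left, controls right). Irinotecan replicate 1 is low for all of them, and the chains reach their highest ratio in irinotecan replicate 3 and are low in control replicate 3. The dendritic list without Fscn1 has the same order over a narrower range, and it holds Zbtb46, which is highest in irinotecan replicate 1.

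The chains were also read per marker count. Per 100 macrophage marker counts the summed chains had 4.27, 6.61 and 12.8 counts in the irinotecan tumours, against 5.82, 8.01 and 3.63 in the controls. Irinotecan replicate 1 lay within the control range on this scale, and irinotecan replicate 3 above it. Per 100 counts of Itgax the chains had 923, 1786 and 2206 with irinotecan, against 1730, 1709 and 1476 in controls, and here irinotecan replicate 1 lay under all others. Ctss per 100 macrophage marker counts was 10.6, 9.71 and 11.4 with irinotecan, against 8.98, 9.06 and 7.94 in controls. All irinotecan tumours lay above all controls in that ratio, which has no test because it was chosen with the values known.

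Other lists that a tumour sample could hold did not share the order of the chains. Neutrophil markers summed to 281, 287 and 325 normalized counts with irinotecan, against 624, 538 and 686 in controls. Endothelial markers summed to 1402, 1749 and 2003, against 2689, 2325 and 2652. Fibroblast markers, at 35563 to 39432 with irinotecan and 30811 to 42329 in controls, overlapped. Skeletal muscle markers were at 137, 210 and 819 with irinotecan, against 338, 23.0 and 258 in controls, and were thus highest in irinotecan replicate 3. Keratinocyte markers were at 27.4 to 74.2 with irinotecan and 36.6 to 65.8 in controls.

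The genes whose log2 values followed the members' mean profile most closely over the 6 libraries, of 12464 protein-coding genes outside the set, included 9430015G10Rik (Pearson r = 0.998), Trim40 (0.996), Ppox (0.994) and Pex16 (0.993). As a description over 6 libraries, 1 of which stands apart, 4.61% of those genes exceeded 0.9. Without irinotecan replicate 1 the 5 closest were Per2, Trim40, Txnl4b, 9430015G10Rik and Mzf1. Pearson r does not measure the size of the variation. Over the 6 libraries 9430015G10Rik ran from 477 to 630 normalized counts, where H2-Aa ran from 239 to 1737. Trim40 had 29.8, 59.7 and 83.1 normalized counts with irinotecan, against 57.0, 64.8 and 38.7 in controls. Among the members the same measure, which includes each of them in the mean, was 0.994 for H2-Ab1, 0.992 for H2-Aa, 0.990 for Cd74 and 0.975 for H2-Eb1. It was 0.937 for Ctss, 0.905 for H2-DMa, 0.873 for H2-DMb1, 0.822 for Ifi30 and 0.722 for Ciita. H2-DMb2 was the least alike, at 0.115. Without irinotecan replicate 1 it was 0.692 for H2-DMb2, 0.384 for Ifi30, then the least alike, and 0.976 for Ciita.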

How the data were processed

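Bulk RNA sequencing was read in 3 irinotecan and 3 control tumours. The submitters' processing notes name CASAVA, fastp, HISAT2 2.0.5, featureCounts 1.5.0-p3, DESeq2 1.20.0 and GRCm38 (mm10), with no roles. The annotation release, strand setting and library kit were not given in the sources used here. In the table, the authors deposited a normalized signal per library, read counts divided by 1 factor, and 100% of the values were whole multiples of 1 read (tolerance 1e-06). The deposited table also holds, per the file headers, the authors' mean signal per group, log2 fold changes, p-values and other gene details such as length and position.

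Because raw counts were not in the table used, the test was limma 3.58.1 (R 4.3.3), with a mean-variance trend and empirical Bayes moderation, on log2(normalized count + 1), two-sided, with the group as the only term. On this scale, fold changes of low genes come out too small. Only the 14639 genes with a mean of at least 10 were tested, and a Benjamini-Hochberg adjusted p-value under 0.05 was called. Of 19 alternatives, 15 were planned: quantile normalization, pseudocounts 0.5 and 10, no filter, library weights, a replicate block, each library left out, and edgeR 4.0.16 with TMM, DESeq2 1.42.0 and voom on the recovered reads. A further 4, chosen after seeing the data, were edgeR with other size factors, edgeR and DESeq2 lacking irinotecan replicate 1, and removal of a GC and length trend (99.87% of genes had a GC value). The code was tested on simulated data.

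The members and lists were chosen with earlier results of these data known. Named genes were the 10 members, from each pathway list the 3 positive and the 3 negative genes of smallest unadjusted p, a fixed panel (Irf1, Rfx5, H2-Ea-ps, H2-Oa, H2-Ob, Ptprc, Itgax, Flt3, Adgre1, Csf1r, C1qa, Cd79a) and the 5 genes of most like pattern. Some genes these rules take are not reported here. Ifng, Rfxap, Nfyb, Nfyc, Aif1, Cd163, Mrc1, Lyz2, Fscn1, Zbtb46 and the epithelial genes were added afterwards. As the reads carry no stated molecular identifiers, depth limits counting error alone.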

Additional observations from a re-analysis of the deposited data

How the results depend on the processing

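No member was called under any of the 19 alternatives. Over members and alternatives, 149 of 190 log2 fold changes kept their direction and 41 turned. H2-DMb2 and Ifi30 kept theirs throughout. Over all genes, 52 were called with library weights (30 higher, 22 lower), 47 with DESeq2 (28 and 19), 151 with DESeq2 lacking irinotecan replicate 1 (74 and 77), 2 with edgeR lacking that replicate, and 0 to 2 with each library left out. With that DESeq2 fit 2 of the other named genes passed, Tap2 (0.58) among them. Members with a positive fold change numbered 8 with library weights, 7 with edgeR (either scaling) and DESeq2, 9 with either tool lacking irinotecan replicate 1, and 1 to 9 with each library left out. The replicate numbers do not pair the samples: correlations of same-numbered deviations were -0.11, -0.0087 and -0.21. The replicate block called 0 genes and left 4 members positive with a median of -0.09, and under it H2-DMb2 had an unadjusted p of 0.0515.

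Log2 fold changes that turned direction were as follows, and the cause was not tested. With quantile normalization, H2-Eb1 was 0.044 and Rfx5 0.0059. With the GC and length trend removed, H2-Eb1 was 0.13, H2-D1 0.069, C1qa 0.011 and Itgax -0.046. The count models compare linear means. DESeq2 gave Cd74 0.0032, H2-Aa 0.20, H2-Eb1 0.095 and H2-D1 0.035. With TMM, edgeR gave Cd74 0.0061, H2-Aa 0.21, H2-Eb1 0.099, H2-Ea-ps 0.0028 and H2-D1 0.037. With DESeq2-type size factors it gave Cd74 0.0058, H2-Aa 0.21, H2-Eb1 0.098, H2-Ea-ps 0.0021 and H2-D1 0.039. With library weights, where irinotecan replicate 1 had a weight of 0.127 against 1.19 to 1.88 for the others, H2-Aa was 0.52, H2-Eb1 0.44, Cd74 0.30, Ctss 0.14, H2-Ea-ps 0.35, Rfx5 0.20, H2-D1 0.22, B2m 0.029, C1qa 0.13, Ifngr1 0.036 and Ptprc 0.047. Lacking irinotecan replicate 1, edgeR gave H2-Aa 0.67, H2-Eb1 0.50, Cd74 0.42, Ctss 0.20, H2-DMa 0.12, H2-Ea-ps 0.45, Rfx5 0.24, H2-D1 0.26, B2m 0.077, C1qa 0.24, Ifngr1 0.0094, Ptprc 0.025 and Socs1 0.011. DESeq2 lacking it gave H2-Aa 0.67, H2-Eb1 0.50, Cd74 0.42, Ctss 0.19, H2-DMa 0.11, H2-Ea-ps 0.45, Rfx5 0.24, H2-D1 0.26, B2m 0.075, C1qa 0.23, Ifngr1 0.0060, Ptprc 0.022 and Socs1 0.0075.

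With each library left out in turn, H2-Aa ran from -0.74 to 0.69, H2-Ab1 from -0.55 to 0.70, H2-Eb1 from -0.52 to 0.57, Cd74 from -0.72 to 0.43, H2-DMa from -1.09 to 0.13, H2-DMb1 from -0.28 to 0.59, Ciita from -0.11 to 0.51 and Ctss from -0.34 to 0.20. H2-Ea-ps ran from -0.83 to 0.48, Rfx5 from -0.30 to 0.24, H2-D1 from -0.16 to 0.26, B2m from -0.82 to 0.071, C1qa from -0.60 to 0.26, Itgax from -0.28 to 0.36, Ifngr1 from -0.21 to 0.015, Ptprc from -0.23 to 0.023 and Socs1 from -0.87 to 0.0071. The members' median log2 value had a within-group SD of 0.81 over the 6 libraries. H2-DMb1, H2-Oa, H2-Ob and the B cell markers are limited by their read numbers.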
